A study of Mus musculus with 12 samples.

Results

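The TNF receptor genes Tnfrsf4, Tnfrsf8, Tnfrsf9, Tnfrsf18, Tnfrsf1a, Tnfrsf1b, Cd27 and Fas were followed in mouse T helper 1 (Th1) cells. These 8 genes were picked by symbol from the 18929 gene symbols of the deposited table, and all 8 were found there. T cells from C57BL/6 mice had been cultured for 5 days under Th1 conditions and sorted before RNA was taken. The comparison set 3 libraries labelled Sdhc cKO against 3 control libraries labelled WT. Sdhc codes for part of complex II, the succinate dehydrogenase of mitochondria, and cKO stands for conditional knockout. The labels do not name the Cre driver, the markers used for sorting, or whether libraries of a group came from separate mice. The p-values thus reflect only how far these libraries scatter. Sex-linked RNAs, given below, differ within each group, so its libraries were not all technical repeats of the same cells. Which of them came from separate mice stays unknown. Another 6 of the 12 samples, labelled as knockouts of the carriers Slc25a1 or Slc25a11 or as transduced with EV, were not analysed here.

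TNF receptors are trimer-binding surface proteins that pass signals to the inside of the cell through TRAF adaptors or through a death domain. OX40 (Tnfrsf4), CD30 (Tnfrsf8), CD137 (Tnfrsf9), GITR (Tnfrsf18) and CD27 recruit TRAF proteins, activate NF-kB and act as costimulatory receptors of activated or memory T cells. TNFR1 (Tnfrsf1a) and Fas carry death domains and can start caspase activation, while TNFR2 (Tnfrsf1b) has none and signals through TRAF2. Regulatory T cells are known for high levels of GITR, OX40 and TNFR2.

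Values are normalised counts, that is, reads of a gene divided by 1 size factor per library. Libraries held 18144933 to 21983821 counted reads. The libraries did not form clean repeats. Libraries numbered 1 of both groups, cKO 1 and control 1, stood apart from the other 4 on the first principal component (49.1% of the variance). The same 2 libraries had almost no Y-linked reads (0.207 RPM in cKO 1 and 0.048 RPM in control 1, RPM being reads scaled to a common library size), against 193 and 189 RPM in cKO 2 and 3 and 131 and 55.1 RPM in controls 2 and 3. The X-inactivation RNA Xist was at 7565 normalised counts in cKO 1 and 9780 in control 1. Controls 2 and 3 also held Xist, at 2490 and 6406 normalised counts, whereas it was at 0 and 2.15 in cKO 2 and 3. The fold change of each member is also given for libraries 2 and 3 of each group alone. That subset does not even out the sex-linked RNAs, since both of its controls held Xist and its cKO libraries had next to none. Genotype and sex-linked differences cannot be told apart in it. With all libraries kept, the groups were also uneven in these RNAs. The main fit had no term for them, so it does not separate them from genotype either. The targeted gene itself differed little. Sdhc had 1452, 1562 and 1655 normalised counts in the cKO libraries, against 1683, 1603 and 1892 in the controls, and gene counts do not show whether part of the gene was deleted. T cell genes were expressed in every library. Cd4 averaged 10905 ± 196 normalised counts in cKO and 10507 ± 417 in control (SD, n = 3 each). Tbx21, the gene of the Th1 transcription factor T-bet, had 1371, 1501 and 1489 normalised counts in cKO, against 1660, 1961 and 1760 in control. Every cKO library lay below every control library for it, as for 5.64% of all tested genes (log2 fold change -0.30, SE 0.09, limma adjusted p = 0.978).

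Th1 cells carried most of these receptors at high levels. Dividing by the length of the annotated exons gives a level that can be compared between genes, here in normalised counts per kb. Tnfrsf4 had the highest mean level, 2183 per kb, with a range of 1937 to 2672 over the 6 libraries, and Tnfrsf18 followed with 1669 per kb (1457 to 2204). The ranges of these neighbours overlapped, although Tnfrsf4 was above Tnfrsf18 in 6 of 6 libraries. Tnfrsf1b came next with a mean level of 1009 per kb (832 to 1180), and Cd27 after it with 639 per kb (553 to 755). Each was without overlap with the members ranked directly beside it. Tnfrsf9, ranked further down, still reached 662 per kb in control 2, above the 553 of Cd27 there. Tnfrsf1a (mean level 435 per kb, range 350 to 553), Tnfrsf9 (400 per kb, 212 to 662) and Fas (378 per kb, 309 to 419) overlapped and could not be ordered beyond their spread. Tnfrsf8 was far lower, at 67.0 per kb (49.9 to 93.2). Among 11959 tested genes with a known length, whose median level was 107 per kb, Tnfrsf4 lay at the 97.2 percentile, Tnfrsf18 at 96.3, Tnfrsf1b at 93.4 and Cd27 at 89.1. Tnfrsf8 was the only member below the median, at the 38.8 percentile. The OX40 and GITR genes were thus among the more abundant transcripts per length, and the CD30 gene was scarce.

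**Figure D1:**
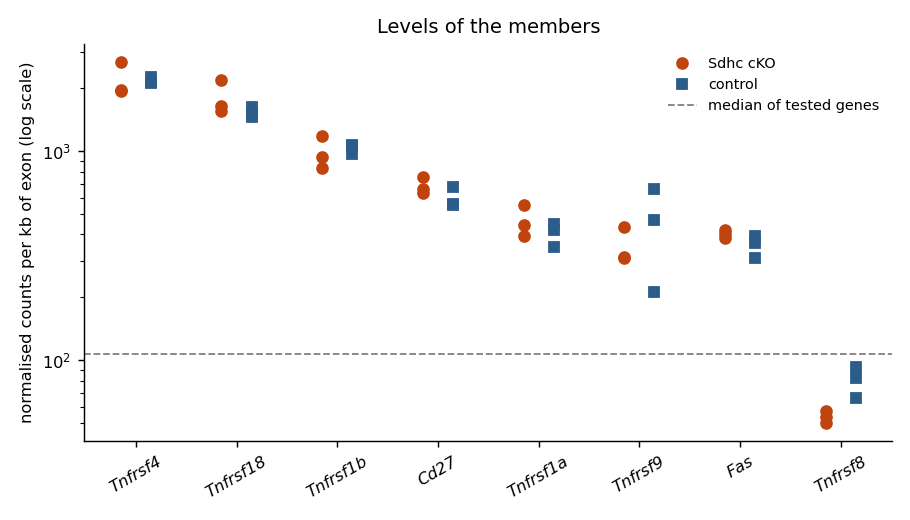
Level of each member in normalised counts per kb of exon (log scale), with the 3 Sdhc cKO libraries left of the 3 control libraries at each gene. The dashed line is the median of the tested genes, 107 per kb. Tnfrsf8 alone lies below it.

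No receptor passed the test between cKO and control. Limma on log2(value + 1) called 0 of the 8 members at an adjusted p under 0.05, against 0% of the 12699 tested genes. At an unadjusted p under 0.05 the members counted 1, Tnfrsf8, against 3.5% of all tested genes (445). edgeR on recovered reads also called 0 genes and 0 members (455 and 1 at an unadjusted p under 0.05). DESeq2 called 0 members and 2 genes, Ifng and Dleu2, or 0.0157% of the tested genes (292 genes and 1 member unadjusted). With the replicate number as a block, limma called 0 members and 1 gene, Ifng (0.00787%). At an unadjusted p under 0.05 that fit counted 4 members, Cd27, Fas, Tnfrsf1a and Tnfrsf8, beside 1596 genes (12.6%). For libraries 2 and 3 of each group only, it called 0 members and 3 genes (0.0236%), and at an unadjusted p under 0.05 it counted 3 members, Tnfrsf4, Tnfrsf8 and Tnfrsf9, beside 929 genes (7.32%). Of the members, 4 had positive and 4 negative fold changes. Their median log2 fold change was 0.09, beside -0.01 for all tested genes, of which 45.9% were positive.

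Tnfrsf8, the CD30 gene, was the 1 member whose groups did not overlap. It had 173, 185 and 198 normalised counts in the cKO libraries, against 283, 322 and 229 in the controls. Every cKO library lay below every control library. The means of 185 ± 12.6 in cKO and 278 ± 47.1 in control (SD, n = 3 each) amount to a cKO mean of 66.6% of the control mean. On the log2 scale the fold change was -0.57, with an SE of 0.15 and a 95% interval of -0.92 to -0.22. The limma adjusted p was 0.978 and the 2-sided exact permutation p was 0.1, the smallest that 3 against 3 allows. Groups without overlap and with lower cKO values occurred at 5.64% of all tested genes and at 1 of the 8 members, and those with higher cKO values at 4.51% of tested genes and at 0 members. The difference was -0.71, -0.80 and -0.21 on the log2 scale between libraries numbered 1, 2 and 3, so it was lower in cKO in 3 of 3 such pairs, as were 21.8% of tested genes. For libraries 2 and 3 of each group only, the log2 fold change was -0.50. In bulk RNA, fewer cells with the transcript and less transcript per cell cannot be told apart.

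Tnfrsf9, the CD137 gene, varied most between libraries of a group. It had 852, 836 and 1188 normalised counts in the cKO libraries, against 578, 1801 and 1279 in the controls. The control values spanned a 3.12-fold range around the cKO values, with control 1 lowest and control 2 highest of all 6 libraries. The replicate spread, a pooled SD of 0.63 on the log2 scale, was at the 95.05 percentile of tested genes, where the median was 0.17. The log2 fold change of -0.22 (SE 0.37, 95% interval -1.09 to 0.65) leaves room for a difference in either direction (limma adjusted p = 0.984). Without the libraries numbered 1, a subset chosen after seeing the data, the log2 fold change became -0.61 with an SE of 0.18 (limma adjusted p = 0.673). Between same-numbered libraries the difference was 0.56, -1.11 and -0.11. The locus overlaps Camta1 on the other strand (mean of 233 normalised counts), and without a stated strand setting reads of the overlap cannot be told apart.

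The stretches before the start sites of these 2 genes are shown because they hold the letters of factors that T cell receptor signalling is known to activate, AP-1 and NF-kB, and that of Fas because it is the third member with AP-1 letters. The AP-1 letters TGANTCA and the kappaB consensus were searched on both strands in 250 bases before each RefSeq start (sequence from RefSeq, GRCm38.p6), and matches are in capitals. Each stretch runs 5′ to 3′ on the strand of its gene.
Tnfrsf8 (chr4:145315165-145315414, minus strand): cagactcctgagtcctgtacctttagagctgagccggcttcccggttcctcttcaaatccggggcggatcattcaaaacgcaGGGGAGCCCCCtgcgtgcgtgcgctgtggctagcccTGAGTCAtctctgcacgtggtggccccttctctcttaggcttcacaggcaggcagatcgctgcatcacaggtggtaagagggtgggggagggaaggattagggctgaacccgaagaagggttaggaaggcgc
Tnfrsf9 (chr4:150927749-150927998, plus strand, the second of its 2 listed starts): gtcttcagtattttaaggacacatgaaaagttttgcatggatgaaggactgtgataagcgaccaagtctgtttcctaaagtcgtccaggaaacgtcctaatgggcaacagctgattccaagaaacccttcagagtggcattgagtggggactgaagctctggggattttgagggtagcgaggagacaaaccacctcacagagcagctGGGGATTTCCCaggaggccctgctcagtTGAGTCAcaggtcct
Fas (chr19:34290409-34290658, plus strand): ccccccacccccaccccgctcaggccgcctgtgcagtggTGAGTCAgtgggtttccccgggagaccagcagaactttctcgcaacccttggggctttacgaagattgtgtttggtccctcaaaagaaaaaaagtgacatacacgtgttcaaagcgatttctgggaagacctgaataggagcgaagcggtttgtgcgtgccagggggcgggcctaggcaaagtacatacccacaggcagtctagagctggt
AP-1 letters stood in front of 3 of the 8 members, at 132 to 126 bases before the start in Tnfrsf8, 15 to 9 in Tnfrsf9 and 211 to 205 in Fas. kappaB letters stood in 2 members, Tnfrsf8 and Tnfrsf9, each as 2 matches that overlap by all but 1 base. The first listed start of Tnfrsf9 and the starts of the other 5 members held neither. Of 32851 mouse promoters of the same length, 6.75% held the AP-1 letters and 7.25% the kappaB letters. A match describes letters in this window only.

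Tnfrsf18 and Tnfrsf4, the GITR and OX40 genes, are neighbours on chromosome 4 with 9551 bases between them, and both had their highest value in cKO 1. Tnfrsf18 (156026164 to 156028895, plus strand, GRCm38) had 3359, 2508 and 2368 normalised counts in the cKO libraries, against 2330, 2221 and 2470 in the controls. Tnfrsf4 (156013843 to 156016612, plus strand) had 3648, 2668 and 2644 in the cKO libraries, against 2889, 2930 and 3101 in the controls. For Tnfrsf4, cKO 1 lay above all controls while cKO 2 and 3 lay below all of them. The log2 fold change of Tnfrsf18 was 0.21 (SE 0.13, 95% interval -0.09 to 0.52) and that of Tnfrsf4 was -0.01 (SE 0.13, 95% interval -0.30 to 0.29). Without the libraries numbered 1 these values were 0.06 for Tnfrsf18 and -0.18 for Tnfrsf4, with limma adjusted p of 0.880 and 0.674. Without cKO 1 alone, Tnfrsf18 was also at 0.06. Tnfrsf18 overlaps the antisense gene Gm16008, which had a mean of 127 normalised counts. Over the 6 libraries, the log2 profiles of the pair, each centred on its mean, differed by 0.11 on average, the third smallest distance of the 28 pairs of members, whose median was 0.25. Closer still were Tnfrsf18 and Cd27 (0.08) and Tnfrsf18 and Tnfrsf1a (0.10). Cd27 and Tnfrsf1a lie on another chromosome than Tnfrsf18, and both also had their highest value in cKO 1. Tnfrsf8 and Tnfrsf1b, neighbours on chromosome 4 with 20266 bases between them, differed by 0.26.

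Cd27, whose receptor supports survival of naive and memory T cells, had 1758, 1471 and 1536 normalised counts in the cKO libraries, against 1309, 1288 and 1569 in the controls. Here, 2 controls were the lowest of the 6 and the third lay within the cKO range. The log2 fold change was 0.20 (SE 0.11, 95% interval -0.05 to 0.44), and 0.08 without the libraries numbered 1 or 0.12 without cKO 1 alone. Its locus overlaps Vamp1 on the other strand (mean of 555 normalised counts). Tnfrsf1b, the TNFR2 gene, had 3176, 4506 and 3595 normalised counts in the cKO libraries, against 3688, 4109 and 4035 in the controls. The cKO values enclosed the control values, and the log2 fold change was -0.08 (SE 0.13, 95% interval -0.38 to 0.21), or -0.02 without the libraries numbered 1. The limma adjusted p was 0.978 for Cd27 and 0.981 for Tnfrsf1b.

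Fas and Tnfrsf1a, the death domain receptors among the members, had slightly higher cKO means with overlapping groups. This was not particular to them, since Tnfrsf18 and Cd27 had log2 fold changes of like size, 0.21 and 0.20. Fas had 792, 832 and 863 normalised counts in the cKO libraries, against 636, 751 and 807 in the controls. Control 3 lay within the cKO range and the other controls below it, and the log2 fold change was 0.19 (SE 0.11, 95% interval -0.06 to 0.43, limma adjusted p = 0.978). Tnfrsf1a, the TNFR1 gene, had 1432, 1016 and 1155 normalised counts in the cKO libraries, against 1163, 908 and 1088 in the controls. Its groups overlapped and cKO 1 was the highest library, and the log2 fold change reached 0.18 (SE 0.15, 95% interval -0.15 to 0.52, limma adjusted p = 0.978). Without the libraries numbered 1 both values were 0.12. That of Fas was 0.09 without control 1, and that of Tnfrsf1a was 0.05 without cKO 1, 0.08 without control 2 and 0.30 without cKO 2. Both genes were higher in cKO in 3 of 3 pairs of same-numbered libraries, as were 14.6% of tested genes. The differences between libraries numbered 1, 2 and 3 were 0.32, 0.15 and 0.10 for Fas and 0.30, 0.16 and 0.09 for Tnfrsf1a on the log2 scale. In the main fit, with genotype alone and all libraries, the 95% intervals include 0 for 7 of the 8 members. Those of the 6 members other than Tnfrsf8 and Tnfrsf9 lie between -0.38 and 0.52. With the block the interval also left out 0 for Cd27 (0.004 to 0.39), Fas (0.02 to 0.35) and Tnfrsf1a (0.03 to 0.34), with limma adjusted p of 0.387, 0.351 and 0.344. The block rests on a pairing by library number that the labels do not give and these data cannot establish.

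**Figure D2:**
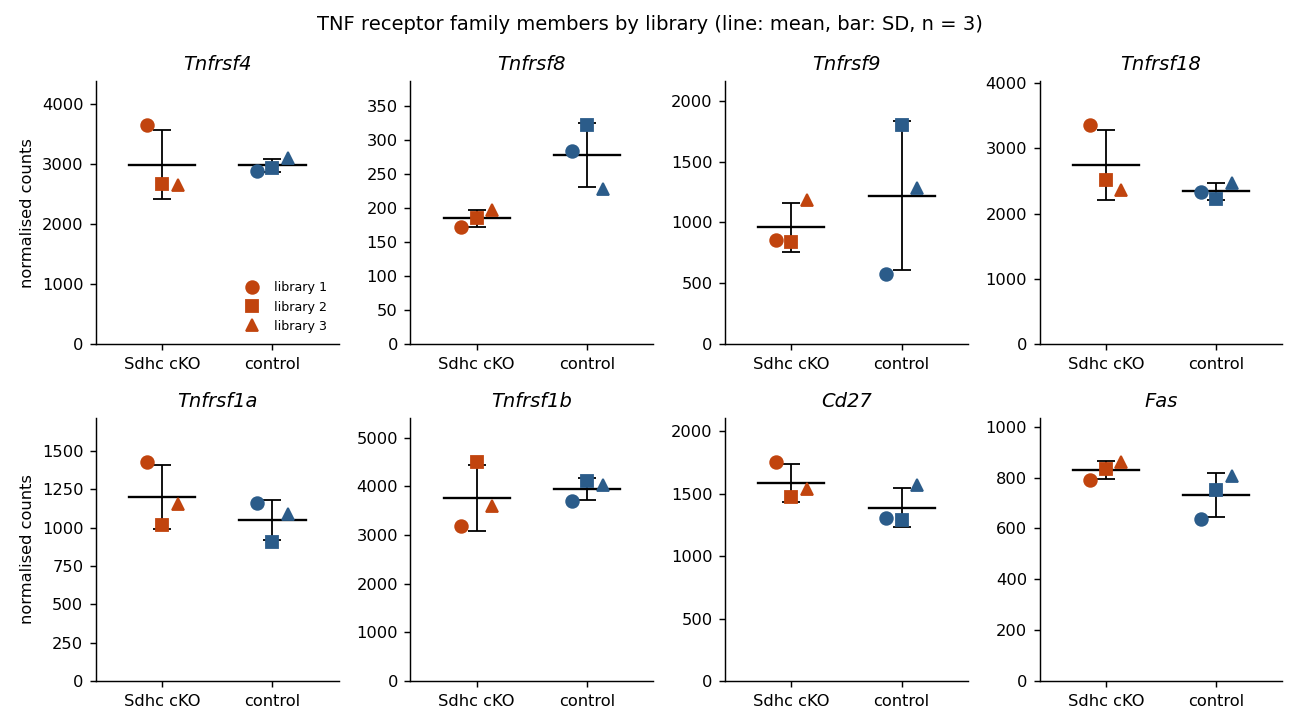
Normalised counts of each member in the 3 Sdhc cKO libraries (left) and the 3 control libraries (right); marker shape gives the library number, the line the mean and the bar the SD. Of the 8 members only Tnfrsf8 separates the groups, with 173 to 198 in cKO and 229 to 322 in control.

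**Figure D3:**
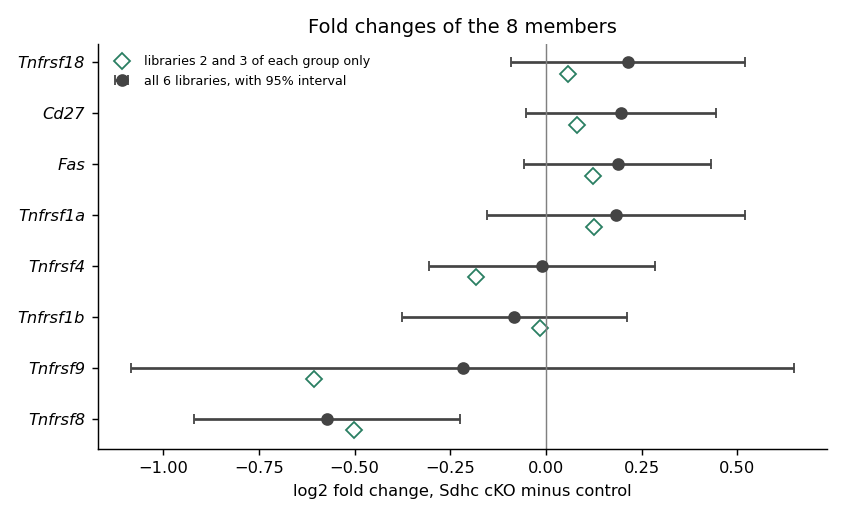
Log2 fold change of each member, Sdhc cKO minus control, with its 95% interval (filled circles), and the value for libraries 2 and 3 of each group only (open diamonds). The interval of Tnfrsf8, -0.92 to -0.22, is the only one here, without the replicate block, that leaves out 0.

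**Figure D4:**
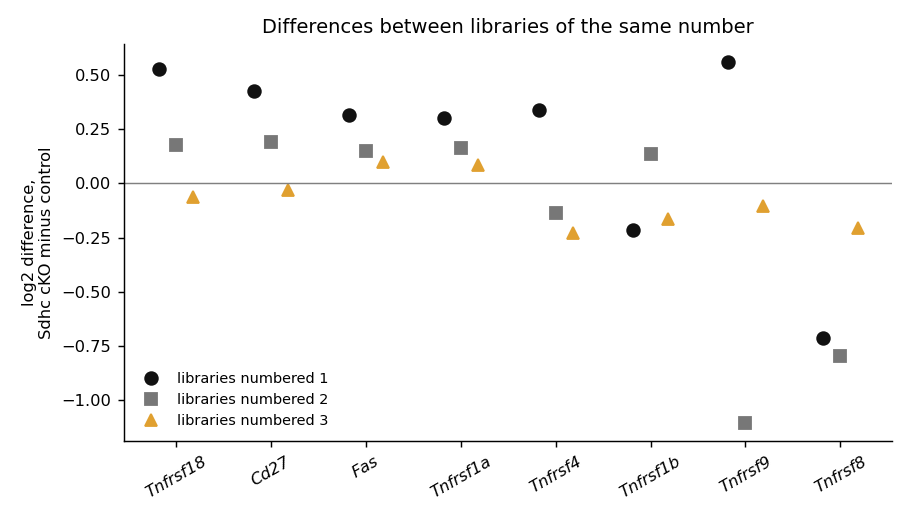
Log2 difference between the Sdhc cKO and the control library of the same number, 3 points a gene. Tnfrsf8 lies below 0 at all 3 and Tnfrsf9 runs from -1.11 to 0.56.

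A numeric term for the Y-linked read share changed the call of some members. With this term beside genotype, 3 of the 8 members passed, against 6.5% of the tested genes (826, of which 617 lower and 209 higher in cKO). Tnfrsf8 was lower in cKO by a log2 value of -0.64 (SE 0.14, limma adjusted p = 0.0308). Tnfrsf18 was higher, with 0.34 (SE 0.08, limma adjusted p = 0.0319), and so was Tnfrsf1a, with 0.33 (SE 0.08, limma adjusted p = 0.0326). None of the 3 passed under any other alternative, and their adjusted p reached 0.999998 with DESeq2. The share is near 0 in the libraries numbered 1 of both groups and highest in cKO 2 and 3.

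The ligands were uneven. Tnfsf8, the CD30 ligand gene, was abundant at 2381, 3100 and 2827 normalised counts in cKO, against 2387, 3161 and 2804 in control, with next to no difference (log2 fold change -0.01, SE 0.13). Per kb its mean level of 729 over the 6 libraries stood beside 67.0 for its receptor gene. Tnfsf4, the OX40 ligand gene, had 259, 449 and 522 normalised counts in cKO, against 263, 688 and 551 in control, lowest in the libraries numbered 1. Tnfsf9, the CD137 ligand gene, was scarce, with 95.4 to 135 normalised counts in the 6 libraries. Tnf averaged 1478 ± 362 normalised counts in cKO and 1410 ± 198 in control, and Lta, the lymphotoxin alpha gene, 1523 ± 516 in cKO and 1590 ± 193 in control (SD, n = 3 each). Fasl had 479, 203 and 192 normalised counts in cKO, against 321, 228 and 260 in control. Its highest value was in cKO 1, and its log2 fold change was -0.01 (SE 0.34). Cd70, the CD27 ligand gene, was close to 0, with at most 3.92 normalised counts in any library.

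In the lists of genes around the receptors limma called 0 genes, beside 0% of all tested genes. Groups without overlap in these lists are to be read against the 10.2% of all tested genes that had them. Of 20 other TNF receptor genes 16 were in the table and 12 were tested, 5 with positive and 7 with negative fold changes and a median of -0.01. Tnfrsf26 and the TRAIL receptor gene Tnfrsf10b were the most abundant of them, with log2 fold changes of 0.13 (SE 0.20) and -0.04 (SE 0.16). Tnfrsf12a, the receptor gene for TWEAK, had 24.1, 25.3 and 19.4 normalised counts in cKO, against 17.6, 11.8 and 15.4 in control. It was the 1 gene of the 12 without overlap, at low counts (log2 fold change 0.60, SE 0.28, limma adjusted p = 0.978). Tnfrsf11a, the RANK gene, differed by -0.59 on that scale (SE 0.48). Among 18 ligand genes, 11 were tested, 4 positive and 7 negative, with a median of -0.01; Tnfsf10, the TRAIL gene, was without overlap at -0.20 (SE 0.10), and Ltb, the most abundant, had 0.06 (SE 0.18).

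Signalling genes lay close to 0. The 20 tested TRAF and receptor-proximal ubiquitin genes were split into 10 positive and 10 negative fold changes (median 0.00), and groups that did not overlap at 2 of them. Traf5, an adaptor of OX40, CD27 and CD30, had 335, 305 and 352 normalised counts in cKO, against 289, 278 and 285 in control, all cKO libraries being higher (log2 fold change 0.22, SE 0.10). Map3k7, the gene of the kinase TAK1, was lower in all 3 cKO libraries at -0.21 (SE 0.09). Of 16 genes of the death receptor arm 13 lay below 0, the median being -0.07. Casp8, the initiator caspase gene below Fas, had -0.09 (SE 0.10). Of 15 NF-kB genes 11 lay below 0, and their median was -0.07. Nfkb1 had -0.10 (SE 0.10) and Rela -0.00 (SE 0.07), while Nfkbiz, an atypical inhibitor gene, had 0.38 (SE 0.15, limma adjusted p = 0.978), with 1191, 786 and 956 normalised counts in cKO, against 733, 686 and 812 in control, where cKO 2 lay within the control range.

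**Figure D5:**
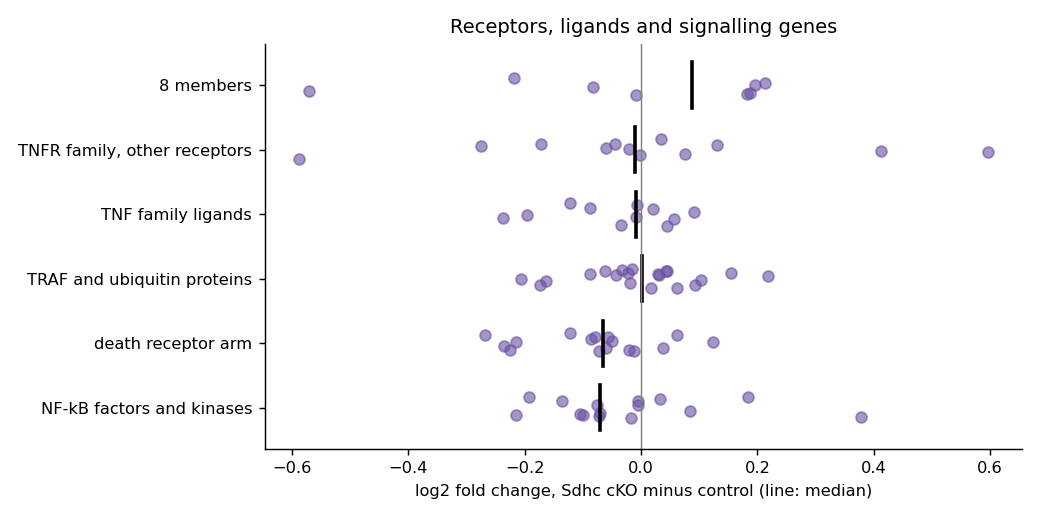
Log2 fold changes, Sdhc cKO minus control, of the tested genes of 6 lists (points), namely the members, other TNF receptors, ligands, TRAF and ubiquitin genes, the death receptor arm and NF-kB genes, with each list's median (line). The medians of these 6 run from -0.07 for the NF-kB and death receptor lists to 0.09 for the 8 members.

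Genes of other cell types were measured beside these values, and their part in the members' differences was not tested. Regulatory T cell markers were present: Foxp3 had 216, 227 and 210 normalised counts in cKO, against 282, 263 and 230 in control, without overlap (log2 fold change -0.24, SE 0.12, limma adjusted p = 0.978). All 8 markers of that list were detected and 7 of 8 had a lower mean in cKO. Their sums, mostly Il2ra, were 31966 to 37645 normalised counts in cKO and 34996 to 40922 in control. The 7 NK cell genes summed to 337 to 419 in cKO and 477 to 524 in control, with all 7 lower in mean and Klra8 at no more than 10 normalised counts in any library. Eomes had the highest mean of these 7, and its groups overlapped. It had 137.6, 231.4 and 247.5 normalised counts in cKO, against 105.6, 365.6 and 309.1 in control. The 6 gamma delta T cell genes in the table summed to 175 to 246 in cKO and 274 to 337 in control, 5 of them lower in mean, with Trdv4 and Cd163l1 at no more than 10 normalised counts. Both sums were without overlap (2-sided exact permutation p = 0.1, the smallest possible), and how often sums of other lists are so was not computed. Singly, 0 of the 4 tested NK cell genes were without overlap. Among the 4 tested gamma delta T cell genes 2 were, Tcrg-C1 and Tcrg-C4. Of all tested genes 10.2% had groups without overlap, and 5.64% had them with lower cKO values. The CD8 genes summed to 235 to 547 in cKO and 278 to 368 in control. The 5 B cell genes in the table summed to 1864 to 2070 in cKO and 1624 to 1978 in control, nearly all Ighm, with Ms4a1 at no more than 10 normalised counts. The 7 myeloid and dendritic cell genes in the table summed to 155 to 242 in cKO and 158 to 175 in control, with Lyz2, Csf1r, Itgax and Flt3 at no more than 10 normalised counts.

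The gene whose profile lay nearest to that of Tnfrsf8 was Ifng, the signature Th1 cytokine gene. Nearness was the mean absolute difference of log2 values over the 6 libraries, each gene centred on its own mean, among 8990 other named genes averaging at least 100 normalised counts. The distance between Tnfrsf8 and Ifng was 0.10, where the median distance to Tnfrsf8 was 0.29. Ifng had 858, 880 and 865 normalised counts in cKO, against 1342, 1461 and 1342 in control (limma adjusted p = 0.265). Like Tnfrsf8, Ifng was lower in every cKO library than in every control library, as were 5.64% of tested genes. For Tnfrsf9 the nearest gene was Egr1, an immediate early transcription factor gene, at a distance of 0.17 (median 0.45). Egr1 had 725, 774 and 1103 normalised counts in cKO, against 646, 1160 and 1176 in control, and shared with Tnfrsf9 its lowest value in control 1. Tnfrsf1b was nearest to the transcription factor gene Klf6, at 0.02 (median 0.15), and both had their lowest value in cKO 1 and their highest in cKO 2. Other nearest genes were Lemd2 for Tnfrsf18, Rfxank for Tnfrsf1a, Dpcd for Cd27 and Spata5l1 for Fas. Each was picked as the closest of 8990, so these distances carry no test.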

How the data were processed

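RNA-seq data of 3 Sdhc cKO and 3 control libraries of Th1 cells, grouped by title, were used. Libraries were made with an Illumina TruSeq kit, per the labels' protocols. STAR, HTSeq, DESeq2 and the build mm10 are named in the submitters' processing notes; their versions, the annotation and the strand setting were not given in the sources used here. Values of the deposited table are a signal per gene, namely reads over a size factor of the library. All of them (100%) came out as whole reads, to within 0.01, when scaled by a library's lowest nonzero value, and these reads entered the count tests.

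Tested were the 12699 genes, all 8 members among them, that exceeded a value of 10 in 3 or more libraries. The test was limma-trend on log2(value + 1) with a genotype term alone (limma 3.58.1 under R 4.3.3), and p was adjusted by Benjamini-Hochberg over all tested genes. Fold changes on this scale understate the change of low genes; SE is the moderated standard error. For single values, exact permutation tests (2-sided) were added. Alternatives were limma-voom, edgeR 4.0.16 and DESeq2 1.42.0 on the recovered reads, other scalings, filters, pseudocounts (0.1 and 5), array weights, the replicate block, the Y-linked read share and each library left out. The members, lists and tests were chosen with earlier results of these data known, and leaving out both libraries numbered 1 was added after seeing the data. Named genes were the members, their ligands, Sdhc, the nearest profiles and, from each list, called genes or else the 2 most abundant and the 2 with the largest fold changes.

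Across genes, each library's deviation from its group mean was correlated with that of the library of the same number, at 0.579, 0.458 and 0.188 for numbers 1, 2 and 3. Each is over 0.1, so the numbers were taken to pair the libraries, a pairing that comes from the data and not from the labels. Libraries numbered 1 stood apart from the rest in both groups, so these correlations cannot establish the pairing. For number 3 it is weak, since cKO 3 had a higher correlation with control 2, at 0.272. Exon lengths and positions came from GENCODE M21 (GRCm38, the assembly of mm10). Tnfrsf9 overlaps Camta1, Tnfrsf18 overlaps Gm16008 and Cd27 overlaps Vamp1 on the other strand. On counts simulated from these libraries with 200 of 12699 genes changed 2-fold, the limma fit recovered 87.5%, and 6.91% of its calls were false. The changed genes were drawn from the better expressed ones, and genes were simulated independently, without the shared differences between libraries. No member differed 2-fold, so this rate does not apply to differences of the size seen here. A few results of single genes are not reported here.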

Additional observations from a re-analysis of the deposited data

How the results depend on the processing

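The count of members called was 0 under every alternative except the Y-linked read share as covariate, where it was 3, and it was 0 with each library left out. The count over all genes was 0 with all libraries, 2 with DESeq2, 1 with array weights, 1 with the replicate block, 826 with the Y-linked share and 3 (Fosb, Ifng and Xist) for libraries 2 and 3 of each group only. With 1 library left out it was 0 to 1, the 1 being Xist without cKO 1. The replicate block changed the call of no member; for Tnfrsf8 its limma adjusted p was 0.264. Tnfrsf4 lies so close to 0 that its log2 fold change changed sign with upper-quartile scaling (0.025), edgeR (0.0248), DESeq2 (0.0184), limma-voom (0.0070) and the Y-linked share (0.11), and ran from -0.16 to 0.0701 with 1 library left out. Tnfrsf9 ran from -0.68 without control 1 to 0.14 without control 2, and Tnfrsf1b from -0.22 without cKO 2 to 0.031 without cKO 1; the cause was not tested. Tnfrsf8 kept its negative sign under all 20 alternatives, from -0.71 to -0.45, and Cd27, Fas, Tnfrsf18 and Tnfrsf1a kept their positive sign, although 1 library left out moved each of them by over 1.5 times. Of 160 single-gene values, 147 kept direction and side of the threshold. The scarcest member, Tnfrsf8, still had at least 173 normalised counts in every library.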
